A study of Mus musculus with 2 samples.

Results

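Interleukin 10 (IL-10) and the genes that control or relay it were followed in 2 RNA sequencing libraries of autoreactive CD4 T cells. The set was fixed by name as 9 genes, and all 9 were found in the deposited table of 54532 gene rows, each in 1 row. It holds the cytokine gene Il10, the receptor chains Il10ra and Il10rb, the interleukin 27 (IL-27) genes Ebi3, Il27ra and Il6st, and the transcription factor genes Maf, Prdm1 and Ahr.

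The cells were BDC-2.5 T cells, all bearing the same transgenic T cell receptor, taken from a diabetes-causing clone of the non-obese diabetic mouse. They were activated and given to NOD.scid mice, a strain with no T or B cells of the host. In the 2.5HIP-PLG group the recipients were injected intravenously with 1.75 mg of 2.5HIP-PLG, polymer nanoparticles bearing the hybrid insulin peptide that this receptor sees, 1 day after transfer, and the Untreated group received none, by its treatment label. In both groups CD4-positive, Foxp3-reporter-negative (GFP-negative) effector cells were sorted from spleen and lymph nodes 6 days after transfer and pooled from 4 mice. Each group is thus 1 library, of 22580648 counts for 2.5HIP-PLG and 26036623 for Untreated, and no difference below has a replicate check. The submitters made the libraries to look for mechanisms of tolerance. Both libraries had high counts of CD4 T cell identity genes, with Cd4 at 41743 counts after 2.5HIP-PLG and 39739 in Untreated. By the rule given below, 0 of 8 such genes were called in either direction. All 8 had a count sum above 1000, where 5.57% of measured genes were called, so 0 of 8 is near that share. Their median log2 ratio was 0.37, towards the 2.5HIP-PLG library.

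IL-10 is a cytokine that restrains inflammation. It binds a receptor of a specific chain, IL-10Rα, and a chain shared with related cytokines, IL-10Rβ, and signals mainly through Jak1, Tyk2 and Stat3. CD4 T cells that make IL-10 without Foxp3 are known as type 1 regulatory cells. IL-27, a pair of the Ebi3 and p28 proteins that acts through the Il27ra and gp130 (Il6st) chains, is a known inducer of that state, and c-Maf, Blimp-1 (Prdm1) and the aryl hydrocarbon receptor (Ahr) are known to promote Il10 transcription in T cells.

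Promoter sequence was at hand for 3 of the 9 genes, from RefSeq (GRCm38.p6), and is shown because 2 of these genes differed between the libraries in opposite directions and the third differed little. Each line gives the 250 bases before a RefSeq transcript start, on the strand of the gene. That start is the GENCODE gene start for Il6st and lies 17 bases upstream of it for Ebi3. For Prdm1 it is an internal start, 69.8 kb downstream of the outermost GENCODE start of the gene given further on. Short motifs of factors in this pathway were searched on both strands, where a match may overlap another. They are the Maf core (TGCTGA), the core bound by Ahr with its partner Arnt (GCGTG), a Blimp-1 core (GAAAGTGAA) and a Stat palindrome (TTCNNNGAA). Capitals mark the matches.

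Ebi3, chr17:55952373-55952622, plus strand: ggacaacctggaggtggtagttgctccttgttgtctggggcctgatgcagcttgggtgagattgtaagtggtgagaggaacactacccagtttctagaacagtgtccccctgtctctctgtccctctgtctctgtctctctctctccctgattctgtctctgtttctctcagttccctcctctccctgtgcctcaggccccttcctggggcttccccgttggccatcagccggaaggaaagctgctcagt

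Il6st, chr13:112463820-112464069, plus strand: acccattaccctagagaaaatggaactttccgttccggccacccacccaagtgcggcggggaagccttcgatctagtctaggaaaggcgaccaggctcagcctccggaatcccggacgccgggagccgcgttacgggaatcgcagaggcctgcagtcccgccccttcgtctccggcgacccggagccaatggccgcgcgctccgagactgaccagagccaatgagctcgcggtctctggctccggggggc

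Prdm1, chr10:44458749-44458998, minus strand: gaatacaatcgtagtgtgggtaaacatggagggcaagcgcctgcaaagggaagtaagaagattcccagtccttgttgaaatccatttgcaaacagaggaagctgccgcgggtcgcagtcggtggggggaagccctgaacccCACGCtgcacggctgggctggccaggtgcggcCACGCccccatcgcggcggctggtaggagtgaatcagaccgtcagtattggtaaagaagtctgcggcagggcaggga

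The Prdm1 window held 2 Ahr cores, both as the reverse complement, whose first bases lay at -109 and -77 from that internal start. The Ebi3 and Il6st windows held 0 matches to any of the 4 motifs. Among 32851 RefSeq windows of this length, 28.2% held the Ahr core, 16.1% the Maf core, 7.02% the Stat palindrome and 0.481% the Blimp-1 core. A match describes letters only and is no evidence of binding. Il10, Il10ra, Il10rb, Maf, Ahr and Il27ra were not matched in the sequence table.

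Counts were scaled by the total of each library to counts per 1000000 (CPM). Ratios give the 2.5HIP-PLG level divided by the Untreated level, and the exact 95% interval beside each covers counting error. A gene was called higher or lower at a ratio of at least 1.5 in that direction with an interval that excludes 1. By this rule 3 of the 9 genes were higher after 2.5HIP-PLG (Il10, Il6st and Maf), 2 were lower (Ebi3 and Ahr) and 4 were neither (Il10ra, Il10rb, Prdm1 and Il27ra). Among all 13902 genes whose counts summed to at least 20, 14.8% were called, 5.15% higher and 9.7% lower. Calls were commoner among scarce genes, at 24.3% of the 6880 genes with a count sum under 1000 and 5.57% of the 7022 with more. Of the 9 genes, the 3 below 1000 (Il10, Ebi3 and Ahr) were all called, as were 2 of the 6 above it. All 9 passed the minimum, and Il10 passed it only through its counts in the 2.5HIP-PLG library.

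**Figure D1:**
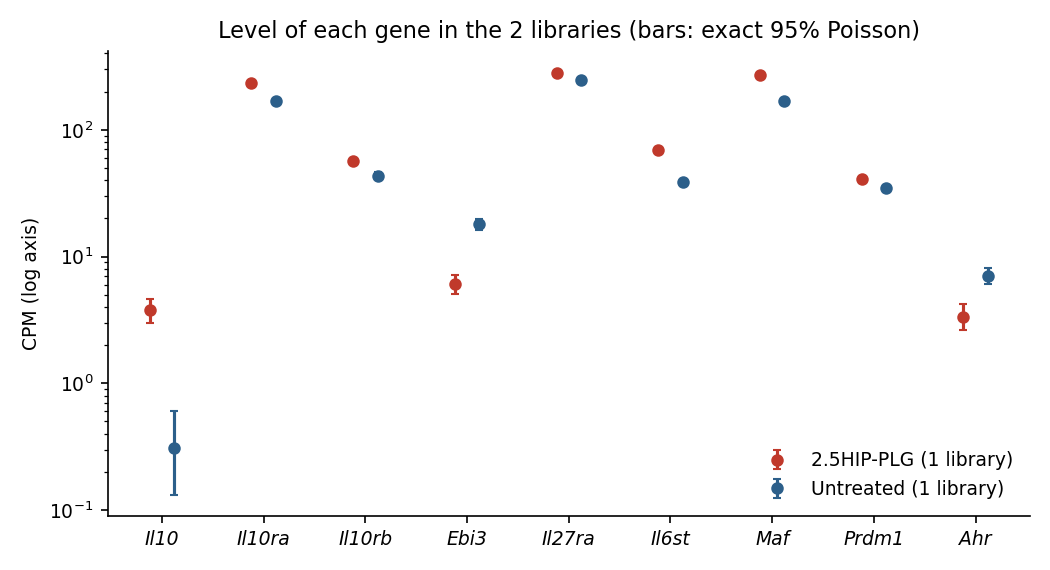
Level of each of the 9 genes in CPM (log axis) in the 2.5HIP-PLG library (red) and the Untreated library (blue), with exact 95% Poisson intervals that cover counting error only. Il10 stands at 3.76 against 0.307 CPM, while Ebi3 and Ahr are the genes with the lower point in red.

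Il10 itself had the largest ratio of the set. It had 85 counts in the 2.5HIP-PLG library, or 3.76 CPM (Poisson interval 3.01 to 4.65), and 8 counts in the Untreated library, or 0.307 CPM (0.133 to 0.605). The intervals of the libraries do not overlap. The ratio was 12.3 (95% interval 5.94 to 29.3), the 25th highest of all measured genes, and the width of the interval comes from the 8 Untreated counts. The gene lies on chromosome 1 (131019845 to 131024974, GRCm38, plus strand), its counts were whole in both libraries, and no annotated gene overlaps it. In pooled cells, a larger share of cells making Il10 and more Il10 RNA per cell cannot be told apart.

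Of 7 listed chromosomal neighbours of Il10, 2 were measured and 0 were called higher. Mapkapk2, a kinase gene on the opposite strand whose near end lies 28.7 kb away, had 3810 and 3700 counts (ratio 1.19, 1.13 to 1.24). Dyrk3, another kinase gene of the region, was lower, with 41 and 126 counts (2.67-fold, 1.86 to 3.89). The IL-10 family genes of the same cluster were nearly silent, with Il19 at 0 and 1 counts and Il20 and Il24 at 0 in both libraries.

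Of the other IL-10 family cytokines, Il22, which acts on epithelial barriers, was the only one with at least 20 counts. It had 0 counts after 2.5HIP-PLG and 23 in Untreated, and its expected counts were not whole. With a floor of 3 counts in place of the 0, it was 6.65-fold lower. That value leaves out the counting error of the 23 Untreated counts, and the exact interval of the fold starts lower, at 4.99. Il22 passed the minimum of 20 only through its Untreated counts, and with 0 counts in the other library a call of lower was then fixed. The opposite directions of Il10 and Il22 are therefore not read as a contrast. Ifnl2 and Ifnl3 had 0 counts in both libraries, which allows up to 0.133 CPM after 2.5HIP-PLG and 0.115 CPM in Untreated.

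Both IL-10 receptor chains were well expressed and leaned towards the 2.5HIP-PLG library without meeting the rule. Il10ra, the chain specific to IL-10, had 5329 counts after 2.5HIP-PLG and 4407 in Untreated, or 236 and 169.3 CPM, a ratio of 1.39 (1.34 to 1.45; chromosome 9, 45253837 to 45269149). Il10rb, the shared chain, had 1287 and 1132 counts, or 57.0 and 43.5 CPM, a ratio of 1.31 (1.21 to 1.42; chromosome 16, 91406164 to 91425834). For both genes the interval excludes 1 and also lies wholly under 1.5. The overlapping gene model Gm21970, on the same strand as Il10rb, had 0 and 4 counts. CD4 T cell identity genes leaned the same way, with a median log2 ratio of 0.37 over 8 genes, against a log2 ratio of 0.48 for Il10ra and 0.39 for Il10rb.

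The receptors of the related cytokines were scarce. Il20rb had 53 counts in each library (ratio 1.15, 0.773 to 1.72), and Il20ra was lower, with 6 and 22 counts (3.18-fold, 1.25 to 9.59). Il22ra1, Il22ra2 and Ifnlr1 had 0 counts in both. Without Il10ra and Il10rb, 2 of 5 listed receptors were measured, with 0 higher, 1 lower and 1 neither, too few for a median to be read. The median log2 ratio over all measured genes was -0.01.

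The IL-27 genes parted in direction. Ebi3, which encodes the subunit shared by IL-27 and IL-35, had 137 counts after 2.5HIP-PLG and 467 in Untreated, or 6.07 CPM (5.09 to 7.17) and 17.9 CPM (16.3 to 19.6). The Untreated library was the higher one and the intervals do not overlap. The gene was 2.96-fold lower after 2.5HIP-PLG (2.44 to 3.60), the 371st lowest of the measured genes. It lies on chromosome 17 (55952640 to 55957022), fractional counts were assigned to it, and Gm16712, an annotated antisense gene that overlaps it, was lower as well, with 25 and 60 counts (ratio 0.480, 0.289 to 0.778). Because the strand setting is not stated, reads of this pair cannot be told apart.

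The partners of Ebi3 were almost absent. Il27, which encodes p28, had 0 and 6 counts, and Il12a, which encodes the partner in IL-35, had 2 and 0. Neither reached the minimum of 20, so no direction is given for them.

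Il27ra, the chain that gives the IL-27 receptor its specificity, was the most abundant of the 9 by count. It had 6308 and 6402 counts, or 279.4 and 245.9 CPM, a ratio of 1.14 (1.10 to 1.18; chromosome 8, 84030294 to 84042589). Il6st, which encodes gp130, the signalling chain shared by the IL-6 family, had 1558 and 1000 counts, or 69.0 CPM (65.6 to 72.5) and 38.4 CPM (36.1 to 40.9). It was called higher at a ratio of 1.80 (1.66 to 1.95; chromosome 13, 112464070 to 112510086). The 2 chains of the receptor therefore differed in size of change, and their ratio intervals do not overlap.

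**Figure D2:**
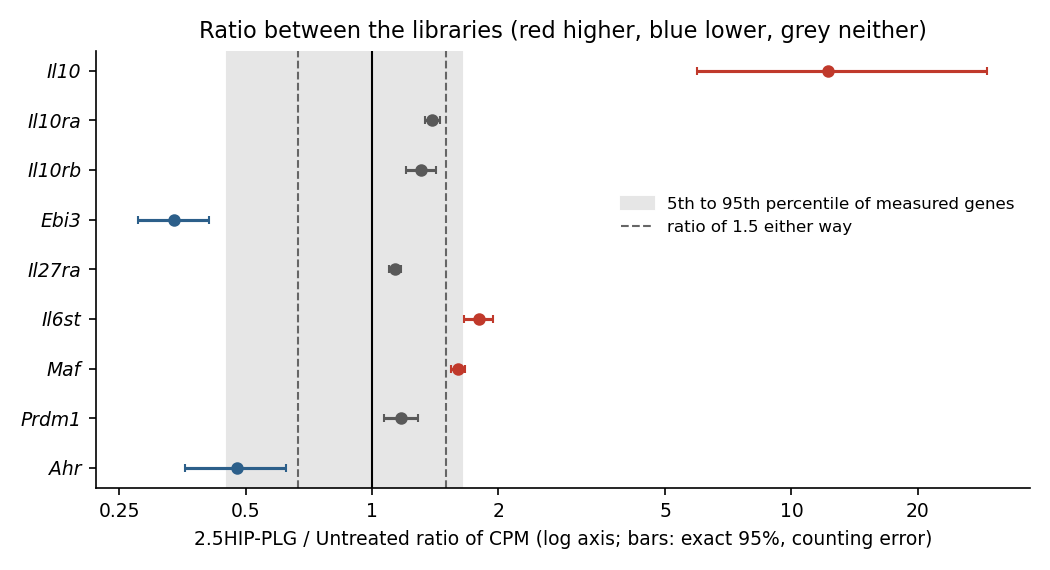
Ratio of CPM, 2.5HIP-PLG over Untreated (log axis), for each of the 9 genes with its exact 95% interval for counting error. The grey band spans the 5th to 95th percentile of all measured genes and the dashed lines mark a ratio of 1.5 either way. Il10 and Il6st lie above the band and Ebi3 below it, while Maf and Ahr lie inside the band but beyond the dashed lines.

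Other genes of the IL-6 and IL-12 families were read beside gp130. Il6ra, the IL-6 receptor chain that pairs with gp130, was higher by nearly the same ratio as Il6st, with 1068 and 687 counts (1.79, 1.63 to 1.98), though its expected counts were not whole. Il23r, the IL-23 receptor chain, was lower, with 64 and 168 counts (2.28-fold, 1.70 to 3.09). Il12rb1 had 1751 and 2222 counts (0.909, 0.853 to 0.968) and Il11ra1 57 and 82 (0.802, 0.561 to 1.14). Without Il27ra and Il6st, 5 of 8 listed receptors of these families were measured, with 1 higher, 1 lower and 3 neither.

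Among the ligands of the same families, Lif, a cytokine that signals through gp130, was higher with 294 and 142 counts (2.39, 1.95 to 2.94). Clcf1, another gp130 ligand, was lower with 915 and 1769 counts (1.68-fold, 1.55 to 1.82). Osm had 432 and 598 counts (0.833, 0.734 to 0.944) and Cntf 32 and 38 (0.971, 0.587 to 1.60). With Ebi3 left out, 4 of 12 listed ligands were measured and 1 was higher, 1 lower and 2 neither.

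Maf, which encodes the factor c-Maf that binds and activates the Il10 gene, was the transcription factor of the set called higher. It had 6121 counts after 2.5HIP-PLG and 4391 in Untreated, or 271.1 CPM (264.3 to 278.0) and 168.6 CPM (163.7 to 173.7). The ratio was 1.61 (1.55 to 1.67), close to the threshold of 1.5, and the gene ranked 742nd from the top (chromosome 8, 115682942 to 115707794). Fractional counts were assigned to it in both libraries, and the overlapping antisense gene Gm15655 was higher too, with 57 and 24 counts (2.74, 1.67 to 4.61). The rest of the Maf family stood apart from it. Of 5 other measured members, with a median log2 ratio of -0.23, 0 were called, near the 14.8% of all measured genes. Among those named here, ratios ran from 0.756 for Mafk (800 and 1220 counts, 0.691 to 0.827) to 0.922 for Mafg (696 and 870 counts, 0.834 to 1.02), with Mafa (39 and 50 counts) and Maff (42 and 57) between them.

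Prdm1, which encodes the repressor Blimp-1, differed little. It had 920 counts after 2.5HIP-PLG and 902 in Untreated, or 40.7 and 34.6 CPM, a ratio of 1.18 (1.07 to 1.29; chromosome 10, 44437177 to 44528501). Of 9 genes known to be repressed by Blimp-1 or to oppose it, 2 were higher, 0 lower and 7 neither (median log2 ratio 0.22). The higher genes included Id3, an inhibitor of E proteins, with 436 and 169 counts (2.97, 2.49 to 3.57). Bcl6, the follicular helper factor that opposes Blimp-1, had 766 and 608 counts (1.45, 1.30 to 1.62), and Myc had 1115 and 1734 (0.741, 0.687 to 0.800).

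Ahr, the ligand-activated receptor for dioxin and for tryptophan metabolites, was lower. It had 76 counts after 2.5HIP-PLG and 184 in Untreated, or 3.37 CPM (2.65 to 4.21) and 7.07 CPM (6.08 to 8.17), and these intervals do not overlap. It was 2.10-fold lower (1.60 to 2.78), the 791st lowest measured gene (chromosome 12, 35497974 to 35535038), with whole counts in both libraries. Its dimer partner Arnt had 1545 and 1682 counts (1.06, 0.988 to 1.14) and the chaperone Ptges3 had 2476 and 2599 (1.10, 1.04 to 1.16). Of the targets, Tiparp, which limits Ahr activity, was lower, with 347 and 622 counts (1.55-fold, 1.36 to 1.78), though its expected counts were not whole. Nqo1 had 32 and 23 counts (1.60, 0.910 to 2.87), whose interval spans 1. The target genes most used to read Ahr activity gave no signal, with Cyp1a1 at 1 and 0 counts and Cyp1a2, Cyp1b1 and Ahrr at 0 in both. Over the list of partners and targets, 5 of 10 were measured, with 0 higher, 1 lower and 4 neither.

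**Figure D3:**
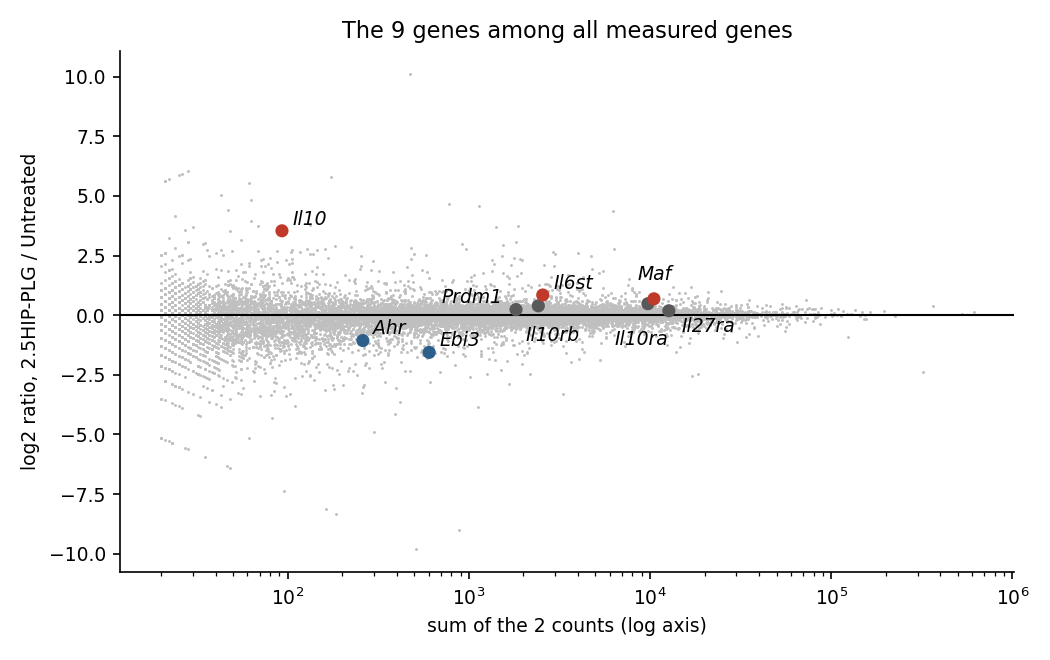
Log2 ratio, 2.5HIP-PLG over Untreated, against the sum of both counts (log axis) for all 13902 measured genes in grey, with the 9 genes coloured by call (red higher, blue lower, dark grey neither). Il10 lies far above the cloud at a count sum of 93, whereas Maf, Il10ra and Il27ra lie among the abundant genes, where the cloud is narrow.

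Per length of exon, the 9 genes spanned a wide range, with the same 3 genes at the top of both libraries and Il10 and Ahr at the bottom. In the 2.5HIP-PLG library Il27ra stood first at 79.9 CPM per kilobase of exon, followed by Il10ra (67.5), Maf (32.9), Il10rb (15.0), Prdm1 (7.30), Il6st (6.22), Ebi3 (5.26), Il10 (2.87) and Ahr (0.546). In the Untreated library Il27ra (70.4), Il10ra (48.4) and Maf (20.5) again led. Ebi3 (15.5) came next there, ahead of Il10rb (11.4), Prdm1 (6.21), Il6st (3.46), Ahr (1.15) and Il10 (0.235). After 2.5HIP-PLG the counting intervals of Ebi3 (4.41 to 6.22) and Il6st (5.91 to 6.53) overlap, so that pair is not ordered. With the longest coding transcript as length in place of all exons, 35 of 36 pairs kept their order in each library. The exceptions were Prdm1 and Il6st after 2.5HIP-PLG, and Ebi3 and Il10rb in Untreated.

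The Jak and Stat genes that relay IL-10 and IL-27 were measured in full, and 0 of 6 were called. All had a count sum above 1000, where 5.57% of all measured genes were called, so 0 of 6 is near that share. Their median log2 ratio was 0.25. Stat3, the main transducer of IL-10, had 7772 and 7403 counts (1.21, 1.17 to 1.25), Stat4 5973 and 5377 (1.28, 1.23 to 1.33) and Jak2 5049 and 4530 (1.29, 1.23 to 1.34). Of 8 measured response genes of IL-10 and Stat3, 1 was higher and 0 were lower (median log2 ratio -0.04). The higher one was Bcl3, a nuclear IκB protein, with 2004 and 1201 counts (1.92, 1.79 to 2.07). Socs3, the feedback inhibitor induced by Stat3, had 1180 and 1344 counts (1.01, 0.935 to 1.10). Pim1, a kinase gene, had 4702 and 7855 (0.690, 0.666 to 0.716), short of the rule, and Il4ra, which IL-10 induces in macrophages, had 1886 and 2671 (0.814, 0.767 to 0.864).

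Other genes known to govern Il10 in CD4 T cells split. Of 25, all measured, 7 were higher, 2 lower and 16 neither (median log2 ratio 0.22), against 5.15% higher and 9.7% lower over all measured genes. The largest ratios were those of Il21, a cytokine that promotes IL-10 production (1726 and 147 counts, 13.5, 11.4 to 16.1, expected counts not whole), Egr2 (1598 and 220 counts, 8.38, 7.27 to 9.69), Irf4 (3917 and 1335 counts, 3.38, 3.18 to 3.60) and Egr3 (1445 and 493 counts, 3.38, 3.05 to 3.75). The list was drawn up with the values of these 4 genes already known, so their direction adds no independent evidence. The other higher genes, Batf (1.60), Ikzf3 (1.98) and Nfatc1 (2.04), and both lower genes were chosen for naming after their values were seen. The lower genes were Rora (864 and 2454 counts, 2.46-fold, 2.28 to 2.66) and Zfp36 (5329 and 9960 counts, 1.62-fold, 1.57 to 1.68). Zfp36 is a factor that speeds the decay of cytokine messages including that of Il10. Bhlhe40, a repressor of Il10, had 9648 and 16682 counts (0.667, 0.650 to 0.684), just short of the rule.

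All 11 listed surface and effector genes of type 1 regulatory cells had a count sum above 1000, where 5.57% of measured genes were called. They were mostly higher, with 7 of 11 higher, 1 lower and 3 neither (median log2 ratio 1.24). Lag3, a receptor used to mark these cells, had 5946 and 329 counts (20.8, 18.6 to 23.4). Pdcd1 had 3928 and 812 counts (5.58, 5.17 to 6.02), Gzmb 6404 and 2396 (3.08, 2.94 to 3.23) and Tigit 2723 and 1235 (2.54, 2.38 to 2.72). The lower gene was Itga2, which encodes CD49b, the partner of Lag3 in the usual surface definition of the type, with 467 and 812 counts (1.51-fold, 1.34 to 1.69). It was named after its value was seen. Many of these genes are shared with exhausted and anergic T cells, and the list was drawn up with earlier results of these libraries known.

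**Figure D4:**
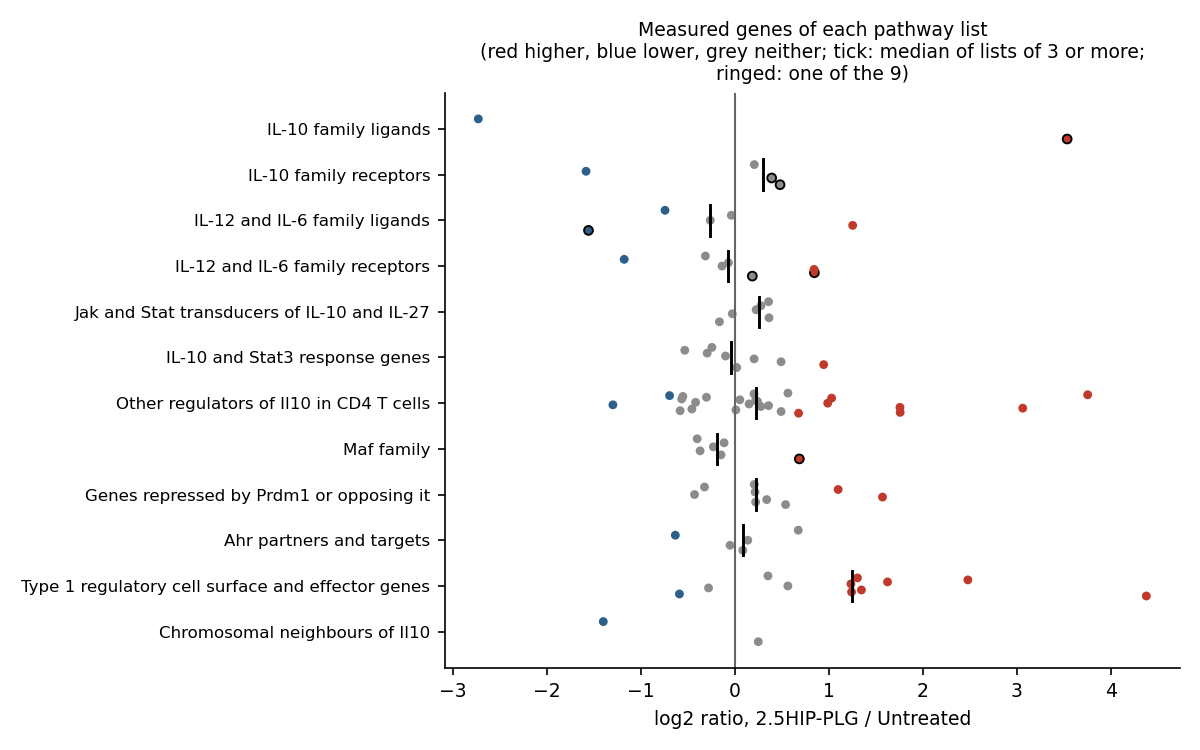
Log2 ratio, 2.5HIP-PLG over Untreated, of each measured gene in the 12 pathway lists (red higher, blue lower, grey neither), with black rings around those of the 9 genes and a tick at the median of lists with at least 3 measured genes. Il22, with 0 counts after 2.5HIP-PLG, is drawn at its floor of 3 counts. Jak and Stat genes cluster near 0, and the type 1 regulatory genes reach furthest to the right.

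Markers of other cell types moved with some of these genes. Over all measured genes, 5.15% were called higher and 9.7% lower. Il10 is also made by regulatory T cells, and of 6 regulatory T cell markers 5 were higher after 2.5HIP-PLG, with a summed level of 256 CPM against 140.1 CPM in Untreated. Their most abundant members were Ctla4 (2434 and 1137 counts), Il2ra (812 and 1358), the 1 marker not called, and Ikzf2 (1310 and 741). Foxp3, whose reporter was used to remove these cells, had 1157 and 389 counts, with fractional counts assigned. Mast cell and basophil markers had 4 of 5 measured genes higher and summed to 19.1 against 4.84 CPM, led by Prss34 (199 and 54 counts), Mcpt8 (116 and 22) and Gata2 (49 and 24). Neutrophil markers had 2 of 3 higher and summed to 13.8 against 3.65 CPM, with Mpo at 237 and 57 counts, Elane at 31 and 9 and Ly6g at 14 and 11. Most of that sum was Mpo, at 10.5 against 2.19 CPM. S100a8 (10 and 8 counts), S100a9 (10 and 9) and Csf3r (9 and 1) fell short of the minimum. B and plasma cell markers had 2 of 4 higher and 1 lower and summed to 189.7 against 121.1 CPM, mostly Ighm (3761 and 2641 counts), with Cd22 (389 and 228) and Blk (97 and 166) next, while the defining gene Ms4a1 had 0 counts in both. Macrophage markers summed to 25.8 against 24.5 CPM, with 3 of 8 higher, and their most abundant members were Itgam (219 and 325 counts), Cd68 (107 and 96) and Lyz2 (101 and 47). Of the CD8 T cell markers Cd8a had 0 and 9 counts and Cd8b1 304 and 272 (1.29, 1.09 to 1.52), and 0 of 1 measured was called. The part of these cells in the Il10 difference was not tested.

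For the lower genes, dendritic cell markers had 0 of 7 measured genes higher and 2 lower, and summed to 65.7 CPM after 2.5HIP-PLG against 91.8 CPM in Untreated. Their most abundant members were Cd74 (1042 and 1541 counts), Itgax (108 and 320) and H2-Aa (173 and 264). Natural killer and innate lymphoid markers had 3 of 7 lower and 2 higher and summed to 709 against 994.4 CPM, led by Gzma (2528 and 15968 counts), Nkg7 (12168 and 8636) and Eomes (735 and 360), which T cells also express. The lower sum rests on Gzma, at 112 against 613.3 CPM, whereas Nkg7 stood at 538.9 against 331.7 CPM. Ebi3 is known from dendritic cells and Ahr from innate lymphoid cells, and the part of either cell type in their difference was not tested.

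**Figure D5:**
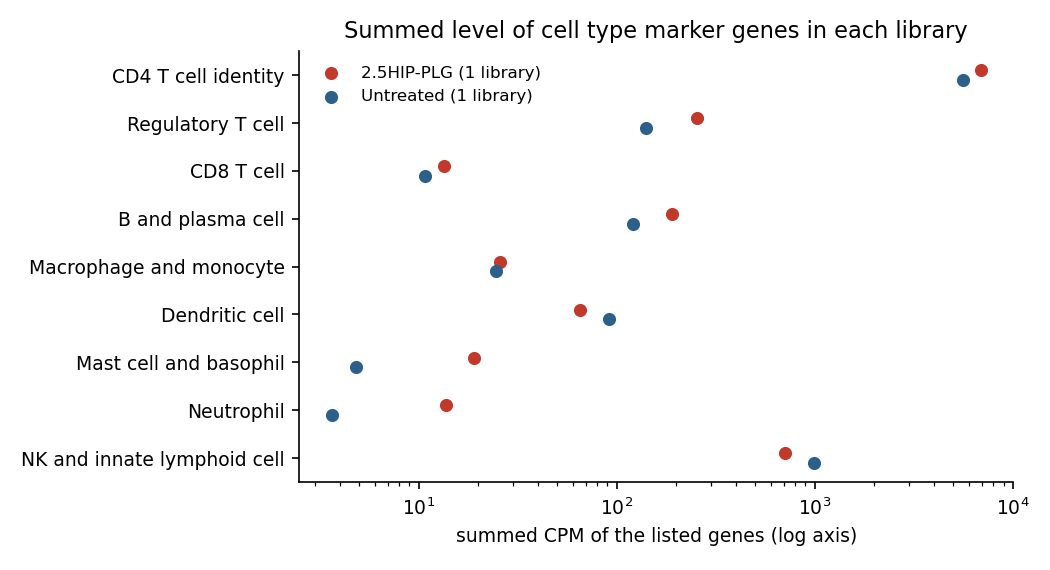
Summed CPM (log axis) of each list of cell type markers in the 2.5HIP-PLG library (red) and the Untreated library (blue). The CD4 T cell sum exceeds every other list in both libraries, and the mast cell and neutrophil sums are the ones furthest apart.

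With only 2 libraries, likeness of pattern reduces to a similar ratio. The coding genes whose log2 ratio was nearest to that of Il10 (3.54) included Erg (25 and 2 counts) and Klra8 (80 and 7), both within 0.10. Nearest to Ebi3 (-1.56) were Il7r (3176 and 10814 counts), Eya2 (123 and 420) and Hist2h2aa2 (9 and 32). Nearest to Maf (0.68) were Atp1b2, Nsmaf and Itm2a, nearest to Il6st (0.84) Frem2, Ms4a4a and Pip4k2a, and nearest to Ahr (-1.06) Igsf11, Gls2 and Srsf12. Frem2 and Ms4a4a had 19 and 12 counts each, and Igsf11, Gls2 and Srsf12 had 8 and 20 each. Their nearness in ratio rests on few counts.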

How the data were processed

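RNA from 2 libraries, 1 per group, was compared. Groups follow the treatment label, because the treatment protocol is worded alike for the Untreated sample. The deposited values are expected counts per gene, for which the submitters' processing notes name STAR, RSEM 1.3.1 and the build GRCm38. They were not scaled by the authors between libraries. For the strand setting, STAR version and annotation nothing is stated (not given in the sources used here). Per the labels' protocols, a NuGen Universal Plus kit for mRNA was used.

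Counts were rounded and scaled by library total. Genes whose 2 counts summed to at least 20 were measured. Ratios carry exact (Clopper-Pearson, conditional binomial) 95% intervals and levels exact Poisson ones (Python 3.11.15, scipy 1.17.1). Log2 ratios had 0.5 counts added. For a fold against a count of 0, 3 counts per library served as the floor. Intervals and floors cover counting error only. One count was worth 0.0443 CPM (2.5HIP-PLG) and 0.0384 CPM (Untreated). No test across samples was possible. Counts were simulated for this comparison (13902 genes) with Poisson counting error only. Of genes made to differ by 1.5-fold, the threshold itself, 46.3% were called. The share was 82.1% for 2-fold, 98.5% for 4-fold and 0.839% for unchanged genes. Variation between libraries was not simulated, so 0.839% is not the rate of false calls in these data.

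Coordinates and exon lengths came from GENCODE on GRCm38. The members, 12 pathway lists, 9 marker lists and the settings varied were chosen with earlier results of these data known. Named genes were the 9 members, up to 4 others per pathway list (those of largest absolute log2 ratio), the most abundant 3 of each marker list and the 3 nearest in ratio to each called member. Members of lists named outside this rule were chosen after their values were seen. Alternatives were TMM and upper quartile factors (edgeR 4.0.16), DESeq2 1.42.0 size factors, totals without the 20 largest rows, other thresholds, minimums and intervals, and unrounded counts. A few genes that this rule names are left out of the text.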

Additional observations from a re-analysis of the deposited data

How the results depend on the processing

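The calls of the 9 genes were the same under all 4 other scalings, a 99% interval, unrounded counts, rows of one symbol summed and, chosen after seeing the data, the sum with overlapping genes. Il10 ranged from 12.1 to 12.4, Ebi3 from 0.335 to 0.354, Ahr from 0.471 to 0.481, Maf from 1.59 to 1.62 and Il6st from 1.78 to 1.81. With a ratio of 2 as threshold, 3 of the 9 genes were called and Maf (1.61) and Il6st (1.80) no longer were. Among all measured genes, 2064 were called, against 1195 with a ratio of 2, a stricter rule on the same genes. Where the counts had to sum to 100, 1221 were called, since that setting admits fewer genes. Scaling moved the median log2 ratio of all measured genes between -0.03 and 0.00. No paired analysis was possible because each group holds 1 library, and for the same reason no library could be left out. Depth limits Il10 most, at 8 Untreated counts, and Il27 and Il12a could not be compared.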

Other observations

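The coding genes nearest to the members on the chromosome were compared after their values were seen. Of these, Ankrd55, Rln3 and Zfp119b were called. Each had a count sum under 1000, where 24.3% of measured genes were called, against 14.8% of all measured genes. The measured ones nearest to Il10, Il10ra, Il10rb, Maf, Prdm1 and Ahr were not called. Ankrd55, which lies 80.1 kb from Il6st on the same strand, had 31 counts after 2.5HIP-PLG and 6 in Untreated (ratio 5.96, 95% interval 2.45 to 17.5), in the same direction as Il6st, while Il31ra, 9.81 kb away on the other side, had 3 and 11. Rln3, on the same strand as Il27ra and with its near end 340 bases away, had 36 and 19 counts (2.18, 1.22 to 4.03). The ratio of Il27ra was 1.14. Beside Ebi3, Zfp119b on the opposite strand went the other way, with 66 and 49 counts (1.55, 1.06 to 2.30), and Yju2 on the same strand had 458 and 569 (0.928, 0.819 to 1.05). Ifnar2, an interferon receptor gene 575 bases from Il10rb, had 2199 and 2108 counts (1.20, 1.13 to 1.28), near the 1.31 of Il10rb. These values rest on 1 library per group and few counts for Ankrd55 and Rln3.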
